A study of Oryza sativa with 6 samples.

Results

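The soluble starch synthases of rice, 8 genes in 4 classes, were followed in young grains of the drw1 mutant and of wild-type ZH11. The genes were taken by locus identifier from the 39217 gene models of the deposited table, in the order SSI (LOC_Os06g06560), SSIIa (LOC_Os06g12450), SSIIb (LOC_Os02g51070), SSIIc (LOC_Os10g30156), SSIIIa (LOC_Os08g09230), SSIIIb (LOC_Os04g53310), SSIVa (LOC_Os01g52250) and SSIVb (LOC_Os05g45720). All 8 were present in the table and passed the filter on low counts. Whole grains had been collected 3 days after pollination from field-grown plants, and RNA was sequenced from 3 drw1 libraries and 3 ZH11 libraries. ZH11 is a japonica cultivar. The labels call drw1 a mutant without giving its allele, its parent line or the number of plants behind a library, so the p-values speak only of variation among the libraries, part of which may be technical. Expression of the mutated gene was not analysed here, as its locus is not known from the labels or the table.

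Soluble starch synthases add glucose from ADP-glucose to the growing chains of amylopectin, the branched part of starch, inside plastids. The classes differ in the chains they lengthen: SSI acts on short chains, SSIIa carries these to intermediate length, and SSIIIa makes long chains, while SSIV is known from Arabidopsis for its part in starting starch granules. SSI, SSIIa and SSIIIa are known as the forms of the filling endosperm. SSIIb and SSIIIb are known as leaf forms that are also read in the young grain, and SSIIc, SSIVa and SSIVb are read in many tissues. Grains at this stage lie before the main period of starch filling, and maternal pericarp makes up much of their mass.

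Library totals were 16440923 to 17270099 counts in drw1 and 15582373 to 24147797 counts in ZH11. Single members had 259 to 4040 counts per library, so none was near the limit of detection. Values are given as CPM, counts scaled by library total and TMM factor, and levels of different genes are compared only as CPM per kb of the deposited gene length. Across the 23395 genes tested, 70.1% were called in edgeR's quasi-likelihood test at an adjusted p of 0.05, with 34.4% lower and 35.7% higher in drw1. Counts of called members have to be read against these shares.

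The tissue of the grain was checked with marker loci written down from memory, with earlier results of these data known. Of 9 loci assigned to storage proteins of the starchy endosperm, 8 were in the table and tested. All 8 were lower in drw1, against 34.4% of all tested genes. Their summed level was 7.08 to 7.84 CPM in drw1 and 243 to 250.0 CPM in ZH11, with none at 0 over a whole genotype. Of 10 loci assigned to photosynthesis genes of green tissue, 8 were lower in drw1 (against 34.4% of all tested genes) and 1 was higher (against 35.7%). Their summed level was 1161 to 1255 CPM in drw1 and 1926 to 2194 CPM in ZH11. The 2 embryo loci summed to 6.30 to 9.27 CPM in drw1 and 8.70 to 9.05 CPM in ZH11, and the 1 of them that was tested did not pass. The part of these shifts in the values below was not tested. In whole grains, fewer cells of a type and less RNA per cell cannot be told apart.

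Of the 8 starch synthase genes, 5 fell in drw1 (62.5%, against 34.4% of all tested genes) and 0 rose (against 35.7%). The genes were chosen with earlier results of these data known, so these shares are a description and not a test. SSIIa fell most, followed by SSIVb, SSIIIa, SSI and SSIIIb, while SSIIb, SSIIc and SSIVa did not pass the test. Falls of at least 2-fold were called in 3 members (SSIIa, SSIVb and SSIIIa), against 14.6% of all tested genes. SSIVb and SSIIIa lie at that bound, and the count was 1 (SSIIa) without drw1 replicate 3, without ZH11 replicate 3 and with library totals or upper-quartile factors in place of TMM. For the 5 genes that fell, every drw1 library lay below every ZH11 library, as did 35.3% of all tested genes. A further 37.3% of all tested genes had every drw1 library above every ZH11 library, which no member had, so that 72.6% did not overlap in either direction. The median log2 fold change of the members was -0.78, beside 0.033 over all tested genes. The calls followed the division into endosperm and leaf forms only in part. All 3 endosperm forms fell, and so did the leaf form SSIIIb and the widely read form SSIVb. The leaf form SSIIb and the widely read forms SSIIc and SSIVa were not called.

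**Figure D1:**
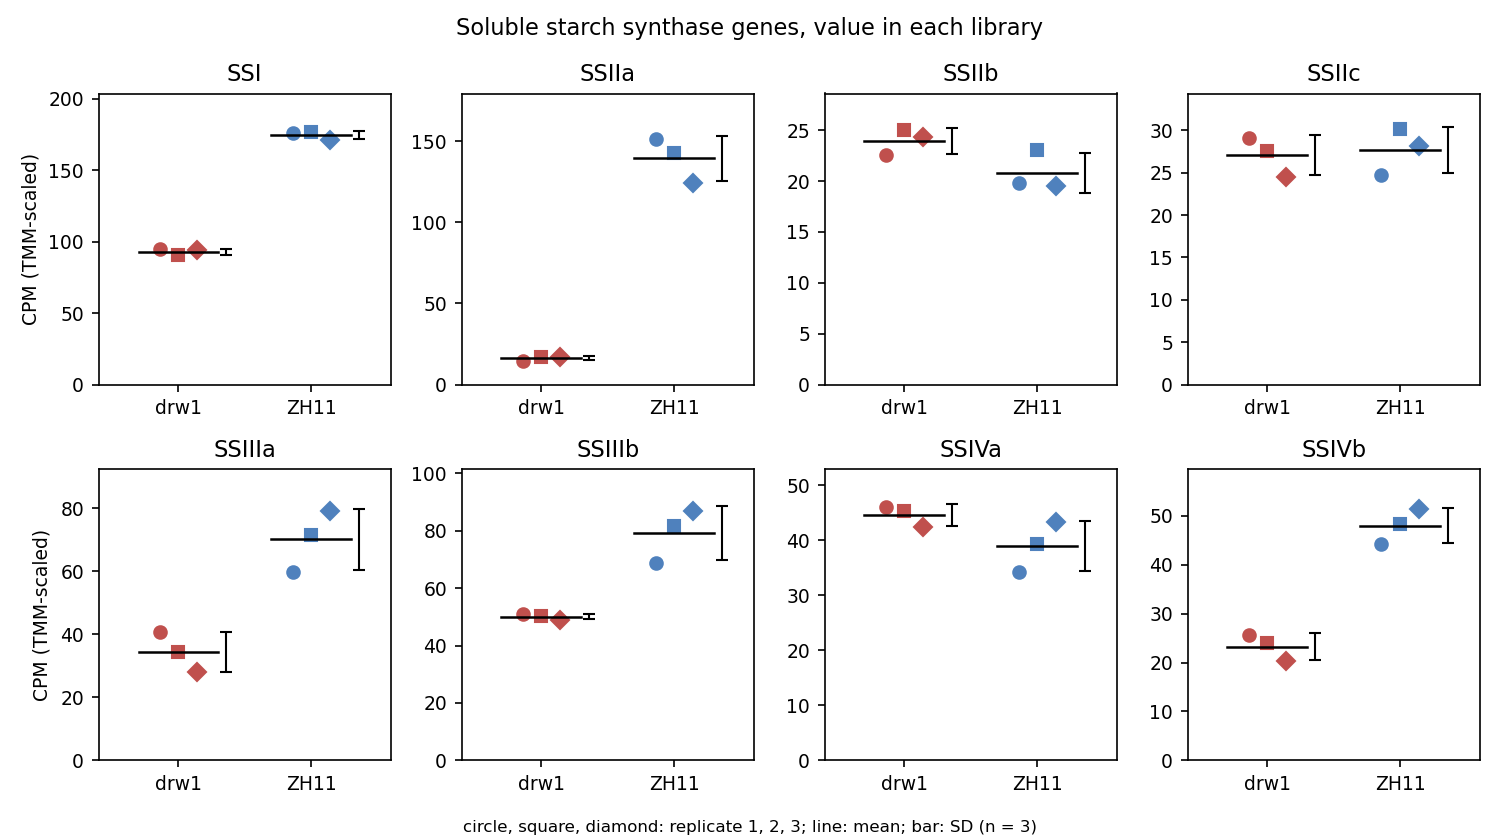
CPM (TMM-scaled, linear axis from 0) of each soluble starch synthase gene in the 3 drw1 libraries and the 3 ZH11 libraries, with the mean as a line and the SD as a bar. SSI, SSIIa, SSIIIa, SSIIIb and SSIVb lie lower in every drw1 library, and the genotypes overlap for SSIIb, SSIIc and SSIVa.

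SSI, the main soluble synthase activity of rice endosperm, had 94.6, 90.5 and 94.0 CPM in the drw1 libraries, against 176, 177 and 171 CPM in the ZH11 libraries. Relative to its mean it had the smallest spread between ZH11 libraries of the 8 genes, and every drw1 library was far below every ZH11 library. The log2 fold change was -0.91 (SE 0.06, adjusted p = 4.4e-10 in edgeR's quasi-likelihood test), which puts drw1 at 0.533 times the ZH11 value with a 95% interval of 0.488 to 0.582. A lower log2 fold change was found in 16.2% of tested genes.

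SSIIa, the gene also known as ALK for its effect on the gelatinization temperature of rice starch, had 14.8, 16.9 and 17.3 CPM in drw1. It had 151, 143 and 124 CPM in ZH11. The highest drw1 library lay far below the lowest ZH11 library. The log2 fold change was -3.09 (SE 0.09, adjusted p = 8.9e-15 in edgeR's quasi-likelihood test), so that SSIIa was 8.54-fold lower in drw1, and drw1 stood at 0.117 times the ZH11 value with a 95% interval of 0.103 to 0.134. Only 382 of the 23395 tested genes (1.63%) had a lower log2 fold change. Under the 15 alternative settings it ran from -3.17 to -2.94 and was called in all 15.

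The other SSII genes gave no such fall. SSIIb, the leaf form of the class, had 22.6, 25.0 and 24.4 CPM in drw1 and 19.8, 23.0 and 19.5 CPM in ZH11. A single ZH11 library, replicate 2, lay above the lowest drw1 library, and the other ZH11 libraries lay below all of drw1. The log2 fold change of 0.20 did not pass the test (SE 0.10, adjusted p = 0.072 in edgeR's quasi-likelihood test), with a 95% interval of -0.0020 to 0.40. Without ZH11 replicate 2 it was 0.28 and was called (adjusted p = 0.032 in edgeR's quasi-likelihood test).

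SSIIc had 29.1, 27.5 and 24.5 CPM in drw1 and 24.8, 30.1 and 28.2 CPM in ZH11, and the libraries were fully mixed. Its log2 fold change was -0.035 (SE 0.10, adjusted p = 0.76 in edgeR's quasi-likelihood test), with a 95% interval of -0.24 to 0.17. The sign turned without drw1 replicate 3 (0.032) and without ZH11 replicate 2 (0.030), and also when library totals or upper-quartile factors replaced TMM. The deposited length of SSIIc, 2250 bases, is the shortest of the 8. It is a multiple of 3, as is that of SSI (3081 bases) and of 65.9% of all models. Which parts of a transcript the deposited lengths cover was not tested. The parts covered bear on the level per length of a gene and not on its fold change.

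The SSIII genes fell in both forms. SSIIIa, whose loss gives rice a floury endosperm, had 40.9, 34.5 and 28.0 CPM in drw1 and 59.9, 71.5 and 79.1 CPM in ZH11. It was the member with the widest spread between libraries relative to its mean, yet the genotypes did not overlap. The log2 fold change was -1.02 (SE 0.12, adjusted p = 5.7e-07 in edgeR's quasi-likelihood test). A 2-fold fall lies within its 95% interval of -1.27 to -0.78. SSIIIb, the leaf form, had 50.9, 50.2 and 49.0 CPM in drw1 and 68.8, 81.6 and 86.9 CPM in ZH11. The drw1 libraries were nearly alike, and all lay below the lowest ZH11 library. Its log2 fold change was -0.66 (SE 0.08, adjusted p = 1.6e-06 in edgeR's quasi-likelihood test), the smallest of the called falls, with a 95% interval of -0.83 to -0.49.

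The SSIV genes were split. SSIVb had 25.5, 24.0 and 20.2 CPM in drw1, against 44.2, 48.2 and 51.3 CPM in ZH11, with no overlap. Its log2 fold change was -1.04 (SE 0.09, adjusted p = 3.2e-08 in edgeR's quasi-likelihood test), with a 95% interval of -1.24 to -0.84. SSIVa had 46.1, 45.4 and 42.4 CPM in drw1 and 34.2, 39.4 and 43.3 CPM in ZH11. The lowest drw1 library lay below the highest ZH11 library, and the other drw1 libraries lay above all of ZH11.

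For SSIVa the test gave 0.20 on the log2 scale, which did not pass (SE 0.09, adjusted p = 0.053 in edgeR's quasi-likelihood test). Its 95% interval, which is not adjusted for the number of genes, ran from 0.01 to 0.38. The value lies at the threshold: it was called in 6 of 15 alternatives, and over all 15 (edgeR, limma or DESeq2) its adjusted p lay between 0.0021 and 0.24. Without ZH11 replicate 3 the log2 fold change was 0.27 and was called (adjusted p = 0.0076 in edgeR's quasi-likelihood test), and without ZH11 replicate 1 it was 0.11.

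The choice of scaling moved all members together. The TMM factors did not overlap between genotypes, at 1.049 to 1.062 in drw1 and 0.937 to 0.957 in ZH11. Leaving them out therefore raises every fold change. With library totals alone in place of TMM, the median of all genes was 0.19 on the log2 scale, and with upper-quartile factors it was 0.14. SSIIb and SSIVa then had log2 fold changes of 0.36 and 0.35 with library totals, and of 0.31 and 0.31 with upper-quartile factors, and were called as higher in drw1. The share of all tested genes called higher was worked out only under TMM, so these 2 calls have no share to be read against. Relative to the median of all genes, SSIIb stood at 0.17 under TMM and at 0.17 under library totals. SSIVa stood at 0.17 under TMM and at 0.16 under library totals. The 5 falls were called under each of the 4 scalings, although SSIIIa and SSIVb fell by less than 2-fold with library totals, at -0.87 and -0.89.

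**Figure D2:**
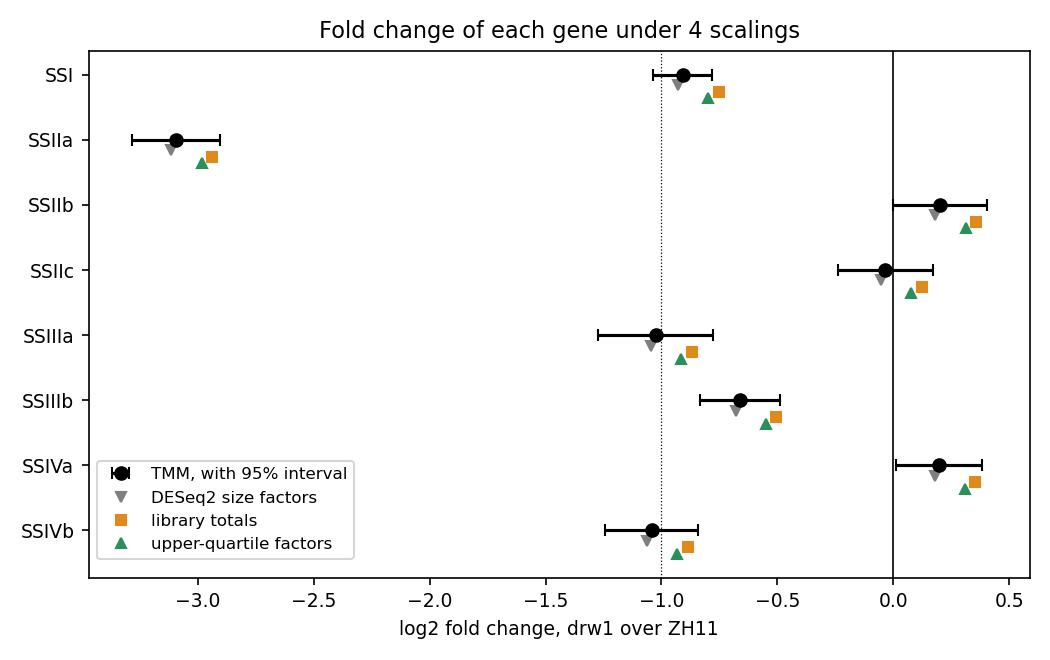
Log2 fold change (drw1 over ZH11) of each gene, with the edgeR estimate under TMM scaling and its 95% interval in black and the estimates under 3 other scalings as coloured symbols; the solid line marks no difference and the dotted line a 2-fold fall. SSIIa lies near -3 under every scaling, and SSIIb, SSIIc and SSIVa lie within 0.36 of 0.

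Ratios of related genes within a library do not depend on scaling. The ratio of SSIIa to SSIIb, as counts per length, was 0.819, 0.842 and 0.885 in drw1 and 9.53, 7.71 and 7.92 in ZH11. SSIIa thus lay below SSIIb in every drw1 library and far above it in every ZH11 library. The mean log2 ratio differed by -3.30 (drw1 minus ZH11; SD 0.06 in drw1 and 0.17 in ZH11, n = 3 each). Against SSIIc, the ratio of SSIIa was 0.430, 0.518 and 0.595 in drw1 and 5.16, 4.0 and 3.72 in ZH11, a log2 difference of -3.06 (SD 0.24 in drw1 and 0.25 in ZH11, n = 3 each).

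The SSIV pair also changed order. The ratio of SSIVa to SSIVb was 1.68, 1.76 and 1.94 in drw1 and 0.718, 0.759 and 0.783 in ZH11, a log2 difference of 1.25 (SD 0.11 in drw1 and 0.06 in ZH11, n = 3 each). SSIVa was the higher of the pair in every drw1 library and the lower in every ZH11 library. The SSIII pair kept its order, with SSIIIa below SSIIIb throughout. Its ratio was 0.583, 0.50 and 0.415 in drw1 and 0.632, 0.636 and 0.661 in ZH11, a log2 difference of -0.38 (SD 0.25 in drw1 and 0.034 in ZH11, n = 3 each). That difference was -0.25 without drw1 replicate 3. The genotypes did not overlap in any of the 4 ratios. Each gave p = 0.10 in an exact two-sided permutation test, and 0.10 after adjustment over the 4 pairs, which is the smallest p that 3 libraries against 3 allow.

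**Figure D3:**
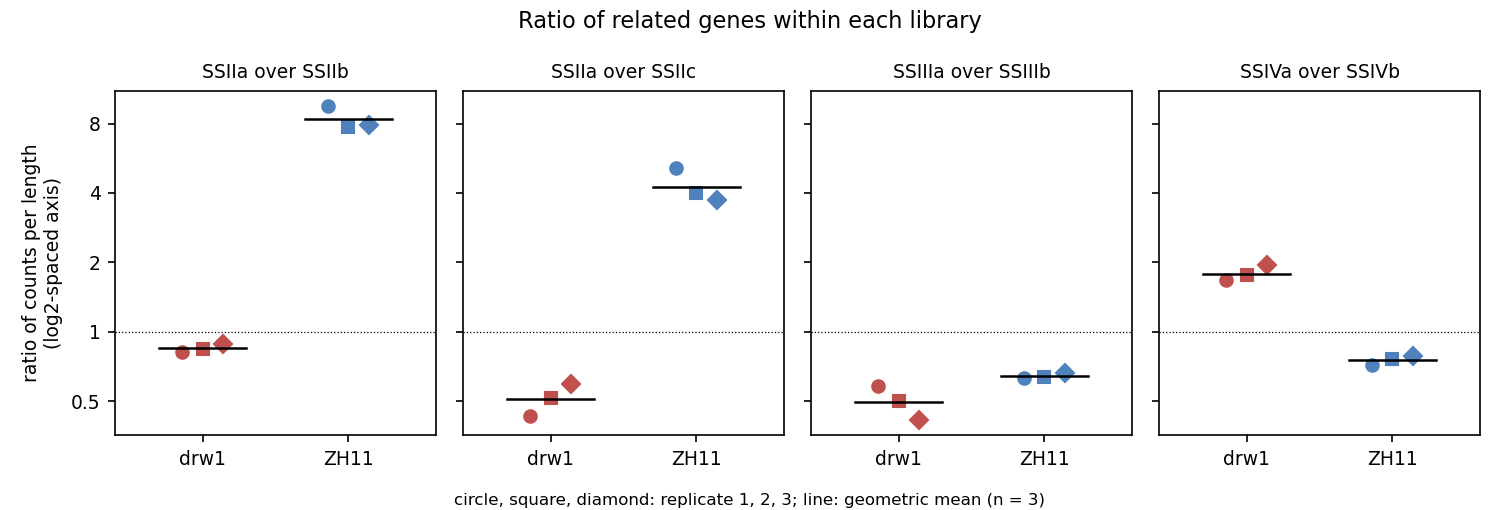
Ratio of counts per length of 2 related genes within each library, on a log2-spaced axis, for the 3 drw1 and the 3 ZH11 libraries, with the geometric mean as a line and the dotted line at equal levels. SSIIa over SSIIb is 0.819 to 0.885 in drw1 and 7.71 to 9.53 in ZH11, and SSIVa over SSIVb lies on opposite sides of equality in the genotypes.

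Compared per length, the 8 genes stood in another order in the genotypes. In drw1, SSI led with 30.2 ± 0.719 CPM per kb (SD, n = 3). It was followed by SSIIc (12.0), SSIVa (11.7) and SSIIIb (11.2 CPM per kb), neighbours whose libraries overlapped. SSIIb (7.22), SSIVb (6.58), SSIIa (6.13) and SSIIIa (5.62 CPM per kb) formed a lower set in drw1, in which each overlapped with the next and which did not overlap with the genes above. In ZH11, SSI (56.7 ± 0.953 CPM per kb) and SSIIa (52.3 ± 5.22 CPM per kb; SD, n = 3 each) led and overlapped, though SSI was the higher of them in 3 of 3 libraries. SSIIIb came next in ZH11 at 17.8 CPM per kb, apart from its neighbours on either side. Below it stood SSIVb (13.6), SSIIc (12.3), SSIIIa (11.5) and SSIVa (10.2 CPM per kb), each overlapping with the next, and SSIIb was lowest at 6.26 CPM per kb, with no overlap. SSIIa stood at 0.203 ± 0.0190 times the level of SSI in drw1 and at 0.922 ± 0.0786 times in ZH11 (SD, n = 3 each).

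Summed over the 8 genes, the level was 93.5, 91.1 and 87.7 CPM per kb in drw1, against 178, 185 and 179 CPM per kb in ZH11. The drw1 mean was 0.502 times the ZH11 mean, and 0.560 times with library totals as scaling. SSIIa alone made up 51.4% of the difference between the means and SSI 29.5%, while SSIVb, SSIIIb and SSIIIa made up 7.77%, 7.28% and 6.49%. The endosperm forms SSI, SSIIa and SSIIIa together held 45.9%, 45.4% and 47.4% of the summed level in drw1, against 69.6%, 66.2% and 64.3% in ZH11. For the sum and for this share the genotypes did not overlap, and each gave p = 0.10 in an exact two-sided permutation test, the smallest possible.

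The lower share of the endosperm forms lay in SSIIa. Its part of the summed level was 6.77% ± 0.740 in drw1 and 29.0% ± 2.97 in ZH11 (SD, n = 3 each). SSI held 33.3% ± 1.34 in drw1 and 31.4% ± 0.672 in ZH11, and SSIIIb held 12.4% ± 0.160 in drw1 and 9.84% ± 1.11 in ZH11 (SD, n = 3 each). SSIIIa held 6.18% ± 0.963 in drw1 and 6.34% ± 0.855 in ZH11 (SD, n = 3 each). The SSIIIa shares overlapped between genotypes (exact two-sided permutation test, p = 0.70), and so did those of SSIVb, at 7.24% ± 0.633 in drw1 and 7.51% ± 0.553 in ZH11 (exact two-sided permutation test, p = 0.70; SD, n = 3 each). The SSI and SSIIIb shares were higher in drw1 without overlap between genotypes. For SSI the margin was thin, with 32.24% in the lowest drw1 library and 32.16% in the highest ZH11 library. The shares of the genes whose own values did not pass the test were also higher in drw1 without overlap. SSIVa held 12.9% ± 0.204 in drw1 and 5.67% ± 0.655 in ZH11 (SD, n = 3 each). SSIIc held 13.2% ± 0.731 in drw1 and 6.80% ± 0.542 in ZH11 (SD, n = 3 each). SSIIb held 7.97% ± 0.605 in drw1 and 3.46% ± 0.25 in ZH11 (SD, n = 3 each). Within the SSII class, SSIIa held 24.2% ± 2.13 in drw1 and 73.7% ± 2.86 in ZH11 (SD, n = 3 each).

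**Figure D4:**
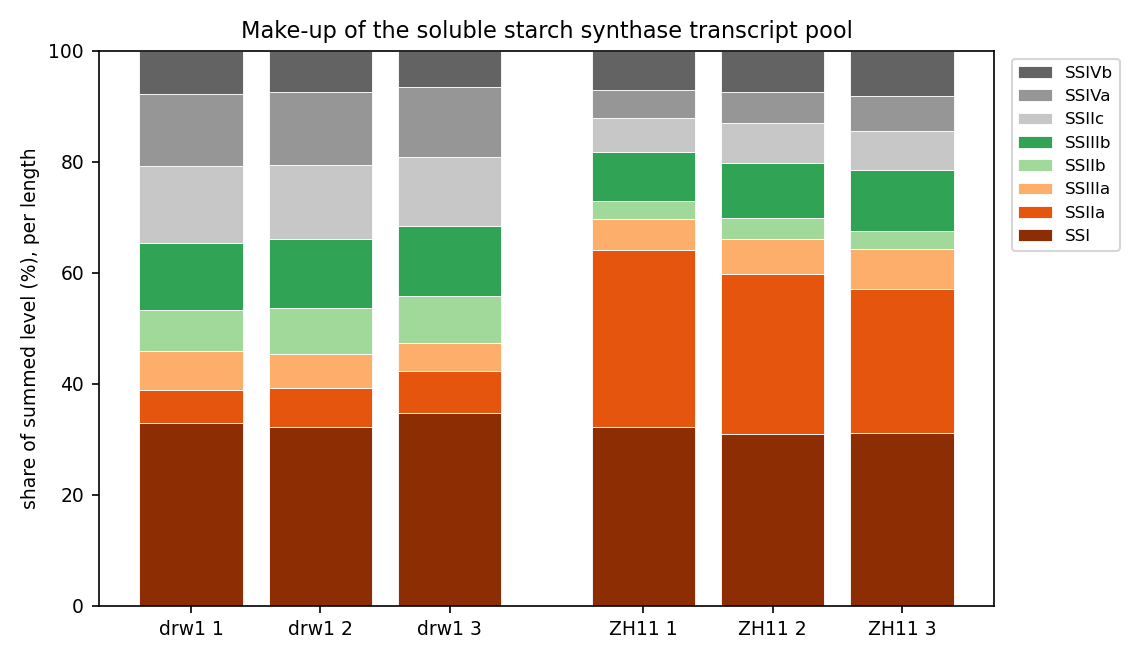
Share of each gene in the summed level of the 8 soluble starch synthase genes (percent, counts per length) in the 3 drw1 and the 3 ZH11 libraries; brown and orange are the endosperm forms, green the leaf forms and grey the others. The SSIIa segment is 6.77% on average in drw1 and 29.0% in ZH11, while the SSI segment is 33.3% in drw1 and 31.4% in ZH11.

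The other genes of starch synthesis were taken from a list of 20 loci written down from memory, for enzymes that make ADP-glucose, carry it into the plastid, make amylose, branch and trim the chains, or act on short chains. No source used here pairs these loci with names, so they are given as counts. Of 19 in the table and tested, 17 fell in drw1 (89.5%, against 34.4% of all tested genes). Of the others, 1 rose (against 35.7% of all tested genes) and 1 did not pass. The list was chosen with earlier results of these data known, so these counts are a description and not a test. With library totals in place of TMM, 15 were lower and 2 higher, and with upper-quartile factors 16 were lower and 2 higher. The shares of all tested genes called lower or higher were worked out only under TMM. Under these 2 scalings the counts therefore have no share to be read against. Their median log2 fold change was -1.04, beside -0.78 for the soluble synthases, and the values ran from -6.26 to 0.51. SSIIa fell further than all but 3 of these loci. Summed, the 19 loci had 1250 to 1293 CPM in drw1 and 3382 to 3484 CPM in ZH11.

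**Figure D5:**
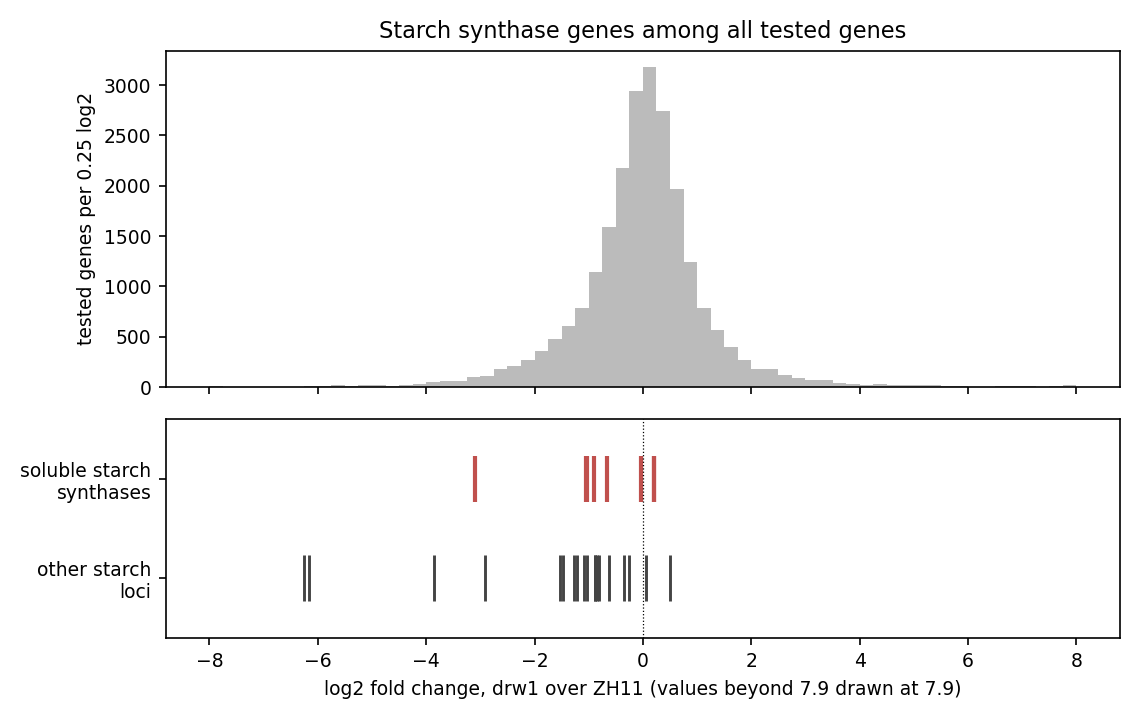
Log2 fold change (drw1 over ZH11): the upper panel counts all 23395 tested genes per bin, and each tick in the lower panel is 1 of the 8 soluble starch synthase genes or 1 of the 19 other starch loci. SSIIa stands apart from the other soluble synthases at -3.09, and 3 of the other starch loci lie further left.

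Loci with a pattern most like that of a member were sought by the distance of log2 CPM, centred per gene, over the 6 libraries. For SSIIa, the member with the largest change, the nearest was LOC_Os04g51460 at a distance of 0.11 log2 units. It had 62.6, 68.1 and 70.4 CPM in drw1 and 621, 541 and 488 CPM in ZH11. The next was LOC_Os12g29400 at 0.13, for which edgeR's quasi-likelihood test gave -3.09 on the log2 scale (SE 0.11, adjusted p = 1.5e-13). Like SSIIa, both were highest in ZH11 replicate 1 and lowest in drw1 replicate 1, a likeness that the search itself selected for. For SSIIc, the member with the smallest change, the nearest were LOC_Os07g14160 at 0.032 and LOC_Os05g16824 at 0.055 log2 units, and neither passed the test. These distances rest on 6 libraries of 2 genotypes, and 70.1% of tested genes differed between the genotypes.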

How the data were processed

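The authors deposited raw read counts, whole numbers without normalization, beside a gene length in bases that is a multiple of 3 in 65.9% of models. The submitters' processing notes name fastp, HISAT2, featureCounts and DESeq. Versions, genome build, annotation, strandedness and the handling of multiply mapped reads were not given in the sources used here, so reads shared between related genes or overlapping genes could be divided or lost. The mutant's columns do not carry the name drw1 and were assigned to it as the only other genotype of the series; their numbers are those of the columns. Every direction rests on this.

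Counts were compared with edgeR 4.0.16 in R 4.3.3 (quasi-likelihood test, two-sided, TMM, default filter, genotype as the only factor, Benjamini-Hochberg over 23395 genes, threshold 0.05), after a test on simulated data. Standard errors and 95% intervals are approximate, computed from the F statistic. The 4 pair ratios had 0.5 counts added, and the ratio of SSIIa to SSI had none. Alternatives used DESeq2 1.42.0, limma 3.58.1, 3 scalings, 2 filters (none, and at least 5 CPM in 3 libraries), thinning, the replicate number as a block and leaving out each library. The count of 2-fold falls was added after seeing the data. All 8 members were to be named, with the 2 nearest loci of the member with the largest change and of that with the largest called rise or, with none, the smallest change. The members and lists were chosen with earlier results of these data known. Names of members come with the choice of loci. Of the 8, 4 had an entry by symbol in the reference gene table (assembly ASM3414082v1), and for 4 of these its chromosome was that of the locus. Promoter motifs were not analysed here.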

Additional observations from a re-analysis of the deposited data

How the results depend on the processing

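The 5 called falls kept their direction and their call under all 15 alternatives, and the number of members lower in drw1 was 5 throughout. The shares of all tested genes called lower or higher were worked out only for the main edgeR test. Counts of calls under the alternatives therefore have no share to be read against. Members called higher in drw1 were 2 under library totals, 2 under upper-quartile factors, 1 without a filter, 1 with the stricter filter, 1 with limma-voom, and between 0 and 1 when a library was left out. Members at least 2-fold lower were 1 under library totals, 1 under upper-quartile factors and between 1 and 3 when a library was left out. The log2 fold change of SSIIb was 0.36 under library totals and 0.31 under upper-quartile factors, both called, and 0.16 to 0.28 without 1 library. SSIVa was called at 0.35 under library totals, 0.31 under upper-quartile factors, 0.20 unfiltered, 0.21 under the stricter filter and 0.21 by limma-voom, and was 0.11 to 0.27 without 1 library. SSIIc, which was never called, turned to 0.12 under library totals and 0.076 under upper-quartile factors, and ran from -0.12 to 0.032 without 1 library. Of the other starch loci, 2 were higher and 15 lower in drw1 under library totals, and 2 higher and 16 lower under upper-quartile factors; 17 were lower under the remaining alternatives. Scaling shifts all genes alike by its construction; the cause of the other shifts was not tested. Pair ratios, the summed level and the share of endosperm forms kept their sign throughout, and no p below 0.10 was possible for them.

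With the replicate block, 15505 genes were called, against 16395 without it, and this changed no call among the 8 members. The labels do not tie a number to a plant or a day. Deviations from the genotype mean correlated at -0.12, 0.021 and -0.098 between libraries of the same number, and the best match had the same number for 1 of 6 libraries.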
